A study of Homo sapiens with 6 samples.

Results

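The genes described here are 33 genes of sterol and fatty acid synthesis, chosen by name with earlier results of these data known. They are 18 enzymes of the sterol pathway, 9 enzymes of fatty acid synthesis, 5 regulators of the sterol regulatory element-binding proteins (SREBPs) and the sterol carrier STARD4. Their messenger RNA was measured in 22RV1, an established human prostate cancer line, on 6 Agilent 2-colour arrays. Stable cells were made with the lentiviral vectors pLemiR-338-5p or pLemiR-421, which express a microRNA (miRNA), or with the control vector pLemiR-RFP. All lines were kept in RPMI with serum, antibiotics and puromycin, and every array set Cy5 (miRNA line) against Cy3 (control line). The miR-338-5p group had replicates 1, 2 and 3, and the miR-421 group had replicates 1 and 2 and a sample whose label says pool, with no statement of what was pooled. The members had 42 of the array's 58201 probes, and 32 of the 33 genes had a probe that the image software placed well above background in Cy3 or Cy5 on 3 arrays or more, among 21130 gene names that did. SC5D, a sterol desaturase, did not, with signal on 2 arrays, and is not described further.

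Sterol synthesis joins acetyl-CoA units into mevalonate, turns mevalonate into the isoprenoid farnesyl diphosphate, joins farnesyl units into squalene, closes the sterol rings and trims them to cholesterol. Fatty acid synthesis draws on the same acetyl-CoA pool, and its products are then elongated and desaturated. SREBPs are membrane-bound transcription factors encoded by SREBF1 and SREBF2. SCAP escorts them to the Golgi for cleavage, and INSIG1 and INSIG2 hold SCAP back when sterols are plentiful. SREBF2 products act mainly on sterol genes and SREBF1 products mainly on fatty acid genes, and prostate cancer cells are known for active lipid synthesis.

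The mature sequences of both miRNAs, from RefSeq (GRCh38.p14), show what the lines were made to express. The capitals mark the seed, bases 2 to 8, which differed between them.
hsa-miR-338-5p (chr17:81125923-81125944, minus strand): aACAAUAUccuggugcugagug
hsa-miR-421 (chrX:74218392-74218414, minus strand): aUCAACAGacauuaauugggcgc

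The promoters of INSIG1, HMGCS1 and MSMO1, which fell in both lines, of TM7SF2, which rose in both, and of SREBF2, which rose in the miR-421 line, are shown because the members that moved belong to a pathway known for shared control at its promoters. Each is the 250 bases before a RefSeq start site (GRCh38.p14), 5′ to 3′ on the gene's strand. HMGCS1 had 2 such windows, of which 1 held a CCAAT box, and the window with more CCAAT matches is shown. The other genes shown had 1 window each. The capitals mark matches, on either strand, to the sterol element TCACNCCAC, the E-box CACGTG or the CCAAT box, and none of the matches in capitals overlapped.
INSIG1 (chr7:155297628-155297877, plus strand): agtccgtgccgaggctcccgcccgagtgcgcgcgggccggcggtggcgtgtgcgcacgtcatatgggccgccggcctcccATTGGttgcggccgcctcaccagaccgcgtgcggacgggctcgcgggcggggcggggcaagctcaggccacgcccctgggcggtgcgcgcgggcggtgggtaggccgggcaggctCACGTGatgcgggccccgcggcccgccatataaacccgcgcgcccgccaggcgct
HMGCS1 (chr5:43313413-43313662, minus strand): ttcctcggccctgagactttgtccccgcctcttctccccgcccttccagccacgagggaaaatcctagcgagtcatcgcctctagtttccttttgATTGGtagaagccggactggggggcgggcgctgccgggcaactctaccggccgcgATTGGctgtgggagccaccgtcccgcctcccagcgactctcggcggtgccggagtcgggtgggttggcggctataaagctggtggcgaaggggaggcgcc
MSMO1 (chr4:165327419-165327668, plus strand): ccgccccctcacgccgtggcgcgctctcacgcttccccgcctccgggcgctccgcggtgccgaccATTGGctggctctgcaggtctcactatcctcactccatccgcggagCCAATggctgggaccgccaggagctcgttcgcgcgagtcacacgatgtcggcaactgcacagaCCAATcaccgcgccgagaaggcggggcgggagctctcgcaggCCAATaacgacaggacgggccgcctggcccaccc
TM7SF2 (chr11:65111622-65111871, plus strand): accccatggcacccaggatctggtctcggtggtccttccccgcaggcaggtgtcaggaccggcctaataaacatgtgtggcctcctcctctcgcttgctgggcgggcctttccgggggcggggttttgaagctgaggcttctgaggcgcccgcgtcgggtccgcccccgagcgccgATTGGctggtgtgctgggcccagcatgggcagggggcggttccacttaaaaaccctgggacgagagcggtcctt
SREBF2 (chr22:41832855-41833104, plus strand): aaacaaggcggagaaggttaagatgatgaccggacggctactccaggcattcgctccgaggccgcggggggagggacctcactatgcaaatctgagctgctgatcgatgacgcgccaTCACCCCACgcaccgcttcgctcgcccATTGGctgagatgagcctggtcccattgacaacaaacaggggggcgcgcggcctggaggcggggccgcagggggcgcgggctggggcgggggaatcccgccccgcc

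Of the 33 members, 29 had such a window. FDFT1, SQLE, ACAT2 and FASN did not. CCAAT was found, on either strand, in 21 of the 29 (72.4%), 13 of them among the 15 sterol enzymes with a window, against 37% of 27305 genes. The GC box GGGCGG was found in 27 (93.1%) against 46.2%. CACGTG was in 4 (13.8%) against 7.73%, and TCACNCCAC only in SREBF2 (1 of 29, 3.45%) against 1.09%. A gene counted when any of its windows held the letters. The 27305 genes were all those with a window, whether or not above background here, and were not matched to the members in number of windows. Whether the shares are particular to lipid genes was not tested. A match is a description of letters and not a known site of binding.

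SPINK1, a secreted trypsin inhibitor that the labels name for these cells, served as the check of the labels. Its log2 ratio was -3.04, -2.10 and -6.78 on miR-338-5p replicates 1, 2 and 3, with a miR-421 range of -7.01 to -6.15. The array labelled miR-338-5p replicate 3 therefore stood apart from the other miR-338-5p arrays for SPINK1 and within the range of the miR-421 arrays, so called and widely spread results of that line are also given without it. For 2 prostate markers, picked after their values were seen, it lay with its own group. KRT8 read -1.28, -1.40 and -1.25 on miR-338-5p replicates 1, 2 and 3 against -0.51 to -0.13 under miR-421. FOLH1 read 0.02, 1.57 and 1.41 against -1.10 to -0.62. EPCAM, another prostate marker, went the other way, with -0.29, -0.56 and -1.08 against -1.09 to -0.76. For EPCAM replicate 3 thus lay within the miR-421 range, and these markers do not settle its label. In Cy3, the control dye, 47.9%, 47.6% and 47.3% of gene spots were well above background on miR-338-5p replicates 1, 2 and 3. On the miR-421 pool and replicates 1 and 2 the Cy3 share was 44.4%, 44.3% and 44.4%. The control dye thus differed between the groups of arrays, and its part in the comparison of the lines was not tested. In Cy5 the share was between 41.9% and 48.3%, and the minimum was that of miR-421 replicate 1. All 8 prostate markers examined were above background. Among them KRT8 fell in the miR-338-5p line (-1.31, limma adjusted p = 0.00415), and EPCAM (-0.90, adjusted p = 0.0146) and KRT18 (0.97, adjusted p = 0.0142) changed in the miR-421 line. Of 5 fibroblast markers 3 were kept and COL1A2 and COL3A1 were not. The median of the 3 ranged from -0.77 to 0.60 over the miR-338-5p arrays and from 0.19 to 1.91 over those of miR-421. Of these 3, LUM rose in the miR-421 line (2.14 ± 0.73, SD, n = 3; limma adjusted p = 0.0438) and read 1.88, 1.80 and -0.77 on miR-338-5p replicates 1, 2 and 3. Of 4 liver markers APOB was not kept, and ALB fell in the miR-421 line (-4.63 ± 0.40, adjusted p = 0.0475, with Cy5 well above background on 2 of its 3 arrays). ALB read -2.89, 2.18 and -5.12 on miR-338-5p replicates 1, 2 and 3, so the 3 arrays disagreed. Replicate 2 stood apart, as it did for TTR (1.29 against -0.58 and -0.47). For ALB, replicate 3 lay beside the miR-421 arrays (-5.08 to -4.35), and replicate 1 lay above them. The 3 blood cell markers had means between -0.16 and 0.15 in both lines. The part of these marker changes in the results on lipid genes was not tested.

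Ratios are log2 of the miRNA line over control, so -1 on this scale would be a signal cut to 50% of control. A member is said to have risen or fallen when limma's test of the group mean against 0, fitted on all 27509 kept probes, gave a Benjamini-Hochberg adjusted p under 0.05. A gene with several probes is represented by its brightest. The labels do not say that replicates were separate cultures, so p-values measure the spread between these samples, which may be technical. The dyes were not swapped, so dye bias of a probe cannot be told apart from a change in either comparison with control. In bulk RNA, fewer cells of a type and less RNA per cell cannot be told apart.

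In the miR-338-5p line 10 members fell and 1 rose. Over all genes tested, 5.31% fell and 4.04% rose. The 10 were 7 sterol enzymes (HMGCS1, MVD, IDI1, FDFT1, SQLE, MSMO1, EBP), the fatty acid enzymes ELOVL6 and ACSS2, and INSIG1, and the member that rose was the sterol enzyme TM7SF2. In the miR-421 line 8 members fell and 3 rose, where 12.9% of all genes fell and 10.1% rose. The 8 were 6 sterol enzymes (ACAT2, HMGCS1, IDI1, FDFT1, SQLE, MSMO1), ELOVL6 and INSIG1, and TM7SF2, FADS2 and SREBF2 rose. The median over the 32 members was -0.35 in the miR-338-5p line and -0.09 in the miR-421 line, against -0.001 and 0.005 over all genes. Both comparisons share the control line, so the counts are not independent of each other. The 11 calls in the miR-338-5p line became 5 without its replicate 1, 5 without its replicate 2, 5 without its replicate 3 and 7 without miR-421 replicate 2, and the 11 in the miR-421 line became 5 without its replicate 2. Other processing gave 2 to 12 calls for miR-338-5p and 7 to 12 for miR-421.

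The early, mevalonate arm of the pathway held the deepest falls among the sterol enzymes. HMGCS1 (NM_002130; probe at chromosome 5, 43290117 to 43290176, minus strand, hg19) makes HMG-CoA, the precursor of mevalonate. Its log2 ratios were -1.62, -1.70 and -1.34 on miR-338-5p replicates 1, 2 and 3, and -1.45, -2.01 and -1.62 on the miR-421 pool and replicates 1 and 2. All 6 arrays were far below 0 and the groups overlapped. The means were -1.55 ± 0.19 and -1.69 ± 0.29 (SD, n = 3 each), or 34.1% and 30.9% of control, with limma adjusted p = 0.00566 and 0.00266. HMGCS1 passed the threshold in both lines under every one of the 18 alternatives run for each comparison, and without replicate 3 its miR-338-5p mean was -1.66 (adjusted p = 0.0342).

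IDI1 (NM_004508; chromosome 10, 1086619 to 1086678, hg19), which interconverts the small isoprenoid units, read -1.0, -1.38 and -1.07 on the miR-338-5p arrays and -1.45, -1.26 and -1.59 on the miR-421 pool and replicates 1 and 2. Every array was low, and the group ranges overlapped. The means of -1.15 ± 0.20 and -1.43 ± 0.17 (SD, n = 3) had limma adjusted p = 0.00608 and 0.00254, and the miR-338-5p mean was -1.19 without replicate 3 (adjusted p = 0.0401). MVD, the decarboxylase just before IDI1, read -0.96, -0.79 and -0.31 under miR-338-5p and between -0.37 and -0.23 under miR-421. Its miR-338-5p mean of -0.69 ± 0.34 passed (limma adjusted p = 0.0307), and its miR-421 mean of -0.31 ± 0.07 did not (adjusted p = 0.131). Without replicate 3 its miR-338-5p mean was -0.88 (adjusted p = 0.0346). The MVD call was lost without miR-338-5p replicate 1 (-0.55, adjusted p = 0.0952), without its replicate 2 (-0.63, 0.115), without the miR-421 pool (0.0612) and without miR-421 replicate 2 (0.0684).

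ACAT2, the cytosolic thiolase that forms acetoacetyl-CoA, read -0.66, -0.52 and 0.03 under miR-338-5p and -0.76, -0.96 and -0.46 on the miR-421 pool and replicates 1 and 2. The miR-421 arrays were all low, while miR-338-5p replicate 3 lay near 0 and apart from the other replicates of its line. The miR-421 mean of -0.73 ± 0.25 passed (limma adjusted p = 0.026) and the miR-338-5p mean of -0.38 ± 0.37 did not (0.176), nor did it without replicate 3 (-0.59, adjusted p = 0.0961). The miR-421 call was lost without the pool (adjusted p = 0.0879), replicate 1 (0.0964) or replicate 2 (0.0722). The kinases MVK and PMVK and the farnesyl synthase FDPS passed in neither line. Their means lay between -0.14 and 0.28 in the miR-338-5p line and between -0.07 and 0.09 in the miR-421 line. MVK read 0.95 on miR-338-5p replicate 3 and -0.36 and -0.42 on replicates 1 and 2, the widest spread of a sterol enzyme in that line, and its mean was -0.39 without replicate 3 (limma adjusted p = 0.358).

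Of the enzymes of squalene, FDFT1 joins farnesyl units and SQLE oxidises squalene, a rate-limiting step. FDFT1 read -1.05, -1.28 and -0.67 under miR-338-5p and -0.77, -1.33 and -0.79 on the miR-421 pool and replicates 1 and 2. The groups overlapped, with means of -1.0 ± 0.30 and -0.96 ± 0.32 (SD, n = 3; limma adjusted p = 0.0212 and 0.0129). SQLE read -0.96, -0.65 and -0.95 under miR-338-5p and -0.92, -1.69 and -1.16 on the miR-421 pool and replicates 1 and 2. It was lowest on miR-421 replicate 1, and the means were -0.85 ± 0.17 and -1.25 ± 0.40 (limma adjusted p = 0.0288 and 0.00701). Under miR-338-5p the calls of both were lost without its replicate 1 (adjusted p = 0.0802 for FDFT1 and 0.103 for SQLE), replicate 2 (0.0786 and 0.0737) or replicate 3 (0.0516 and 0.118), and without miR-421 replicate 2 (0.0528 and 0.065). Under miR-421 both were lost without its replicate 2 (0.0632 and 0.0516).

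After ring closure the enzymes did not move together. LSS, which closes the rings, and CYP51A1, the lanosterol demethylase, passed in neither line, and CYP51A1 read -1.39 on miR-421 replicate 1 and between -0.54 and 0.05 on the other arrays. MSMO1, a methylsterol oxidase of the demethylation steps, read -0.64, -0.84 and -0.51 under miR-338-5p and between -0.66 and -0.61 under miR-421. It was low on every array, and the means were -0.67 ± 0.16 and -0.63 ± 0.03 (SD, n = 3; limma adjusted p = 0.0104 and 0.00611). MSMO1 was among the dim members (mean log2 intensity 6.68), and its size depended on the background correction: the image software's ratio gave -1.58 and -1.41. Its miR-421 call was lost without replicate 2 (adjusted p = 0.0524), and its miR-338-5p mean was -0.74 without replicate 3 (adjusted p = 0.0399). NSDHL and HSD17B7, its partners in demethylation, passed in neither line, with NSDHL at -0.39 ± 0.38 and -0.53 ± 0.26 and HSD17B7 at 0.02 ± 0.14 and -0.09 ± 0.02.

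TM7SF2 (NM_003273; chromosome 11, 64880991 to 64881050, hg19), a sterol reductase that acts after CYP51A1, moved against the other called enzymes. It read 0.48, 0.79 and 0.63 under miR-338-5p and 0.76, 0.83 and 0.91 on the miR-421 pool and replicates 1 and 2. All arrays were above 0 and the groups overlapped. The means of 0.63 ± 0.15 and 0.83 ± 0.07 (SD, n = 3; limma adjusted p = 0.0119 and 0.00344) were 155% and 178% of control. The miR-338-5p call was lost without its replicate 3 (0.63, adjusted p = 0.0577) and with median centring (0.43, 0.0987). EBP, the sterol isomerase, read -0.69, -0.49 and -0.34 under miR-338-5p and between -0.26 and -0.11 under miR-421, with no overlap. Its miR-338-5p mean of -0.51 ± 0.18 passed (adjusted p = 0.0214), and its miR-421 mean of -0.20 ± 0.08 did not (0.123). The EBP call was lost without any 1 of the miR-338-5p arrays (adjusted p = 0.0662, 0.0781 and 0.0518 without replicates 1, 2 and 3) and without miR-421 replicate 2 (0.0533). DHCR7, the terminal reductase, read -2.37 on the miR-421 pool and between -0.77 and 0.10 on the other 5 arrays, and passed in neither line. The low ratio of the pool lay in the control dye: log2 Cy3 intensity of DHCR7 was 13.25 on that array and 10.90 to 11.10 on the others, while Cy5 on that array was 10.88.

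**Figure D1:**
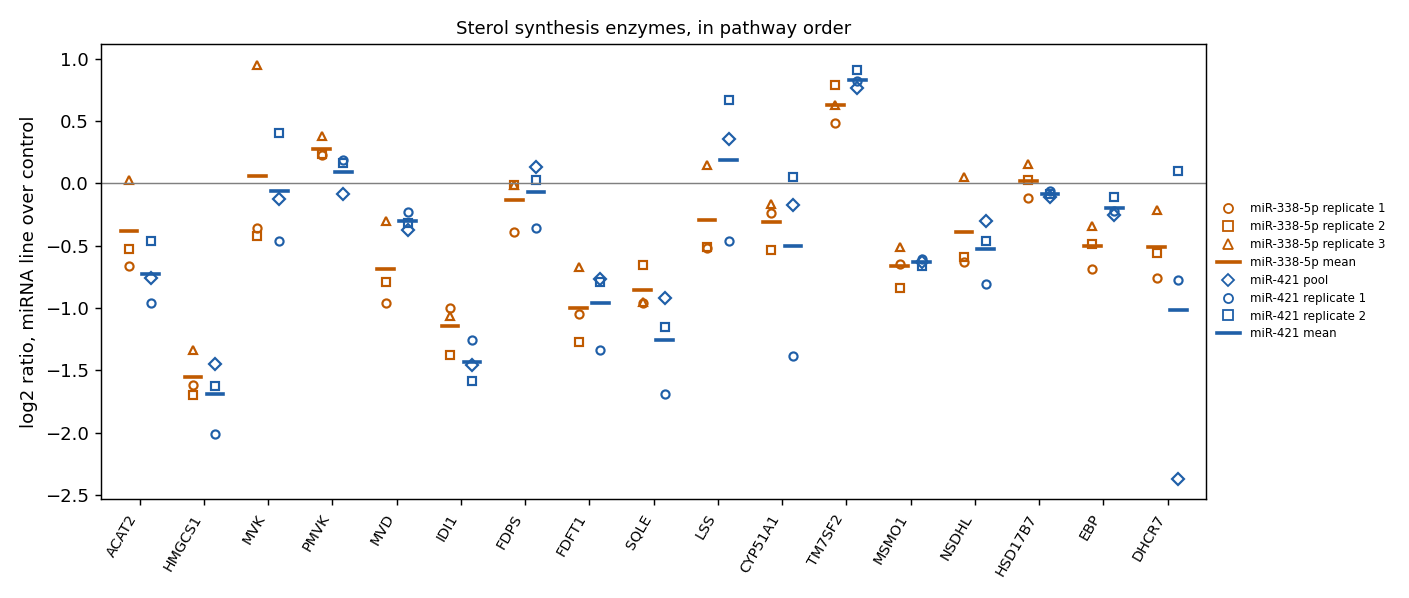
Log2 ratio of the miRNA line over control for 17 sterol enzymes in pathway order, with 1 point per array (orange miR-338-5p, blue miR-421) and a bar at each group mean. HMGCS1 and IDI1 lie near or below -1 on every array, TM7SF2 lies above 0 on every array, and the DHCR7 point at -2.37 is the miR-421 pool.

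Among the regulators, INSIG1 fell in both lines and neither SREBP gene passed as lower. INSIG1 (NM_005542; chromosome 7, 155101843 to 155101902, plus strand, hg19), the retention protein and itself a known SREBP target, read -2.07, -1.73 and -2.04 under miR-338-5p and -1.12, -2.02 and -1.63 on the miR-421 pool and replicates 1 and 2. All arrays were low, the pool least so, and the groups overlapped. The means were -1.95 ± 0.19 and -1.59 ± 0.45 (SD, n = 3), or 25.9% and 33.3% of control, with limma adjusted p = 0.0062 and 0.00551. INSIG1 had the lowest mean of any member in the miR-338-5p line and passed in both lines under every one of the 18 alternatives run for each comparison. Without replicate 3 its miR-338-5p mean was -1.90 (adjusted p = 0.0431). INSIG2, its paralogue, had means of -0.04 ± 0.15 and -0.02 ± 0.03 and passed in neither line.

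SREBF2 (NM_004599; chromosome 22, 42302199 to 42302258, plus strand, hg19), whose product drives the sterol enzymes, read -0.24, -0.16 and 0.09 under miR-338-5p and 0.64, 0.42 and 0.79 on the miR-421 pool and replicates 1 and 2. The groups did not overlap. It rose in the miR-421 line (0.62 ± 0.19, SD, n = 3; limma adjusted p = 0.0121; 153% of control) and did not pass in the miR-338-5p line (-0.10 ± 0.17, adjusted p = 0.549). The miR-421 call was lost without its replicate 2 (0.53, adjusted p = 0.0711) and with median centring (0.50, 0.13). SCAP, the escort, read between -0.22 and 0.16 under miR-338-5p and between 0.22 and 0.29 under miR-421, and passed in neither line (0.945 and 0.0679). SREBF1 read -0.72, -2.21 and -0.13 under miR-338-5p and 1.29, -0.95 and 1.64 on the miR-421 pool and replicates 1 and 2. Its arrays spread widely within both groups, and neither mean passed (-1.02 ± 1.07 and 0.66 ± 1.40; adjusted p = 0.329 and 0.463).

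Of the 9 fatty acid enzymes, 2 fell in the miR-338-5p line, and 1 fell and 1 rose in the miR-421 line. ELOVL6 (NM_024090; chromosome 4, 110971171 to 110971230, hg19), which elongates palmitate, fell in both lines. It read -0.65, -0.64 and -0.78 under miR-338-5p and -0.66, -1.09 and -0.79 on the miR-421 pool and replicates 1 and 2, low on every array and overlapping. The means were -0.69 ± 0.08 and -0.85 ± 0.22 (SD, n = 3; limma adjusted p = 0.0153 and 0.0055). The authors' deposited table gave -1.50 and -2.06 for ELOVL6. The miR-338-5p call was lost without its replicate 1, 2 or 3 (adjusted p = 0.0591, 0.0573 and 0.071), and the miR-421 call held in all 18 alternatives. ACSS2, which makes acetyl-CoA from acetate, read -0.42, -0.43 and -0.56 under miR-338-5p and -0.36, -0.41 and -0.07 on the miR-421 pool and replicates 1 and 2. The groups lay next to each other without overlap, the miR-338-5p mean of -0.47 ± 0.08 passed (adjusted p = 0.0268) and the miR-421 mean of -0.28 ± 0.19 did not (0.057). The ACSS2 call was lost without replicate 1, 2 or 3 of miR-338-5p (0.0834, 0.0877 and 0.113) and without the miR-421 pool (0.0536).

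FADS2, a desaturase of polyunsaturated fatty acids, read 0.50, 0.18 and 0.93 under miR-338-5p and 0.76, 0.85 and 0.87 on the miR-421 pool and replicates 1 and 2. All arrays were above 0. The miR-421 mean of 0.83 ± 0.06 passed (limma adjusted p = 0.0137) and the miR-338-5p mean of 0.54 ± 0.38 did not (0.0634). The miR-421 call was lost without its replicate 2 (adjusted p = 0.0804) and with median centring (0.73, 0.0552). FADS1, the neighbouring desaturase of the same series of reactions, had means of -0.01 ± 0.53 and -0.02 ± 0.29.

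FASN, which builds palmitate, read -0.33, -0.85 and 0.94 under miR-338-5p and 0.97, 0.72 and 1.00 on the miR-421 pool and replicates 1 and 2. The miR-421 arrays were all high, and so was the array labelled miR-338-5p replicate 3, as for SPINK1 on the side of the miR-421 arrays. Neither mean passed (-0.08 ± 0.92 and 0.90 ± 0.15; limma adjusted p = 0.906 and 0.0916), and without replicate 3 the miR-338-5p mean was -0.59 (adjusted p = 0.122). The miR-421 mean of FASN passed when replicate 3 of miR-338-5p was left out of the common estimate of the spread (adjusted p = 0.0151). SCD, which desaturates palmitate and stearate, read -0.16, -1.32 and -1.17 under miR-338-5p and 1.30, -0.13 and 1.21 on the miR-421 pool and replicates 1 and 2. The miR-421 arrays were all above the miR-338-5p arrays, by a small margin for replicate 1 of either line, and neither mean passed (-0.89 ± 0.63 and 0.80 ± 0.80; adjusted p = 0.164 and 0.149). ACLY, ACACA and ELOVL5, which supply acetyl-CoA, carboxylate it and elongate, passed in neither line, with means between -0.43 and -0.13 in the miR-338-5p line and between -0.44 and 0.14 in the miR-421 line.

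**Figure D2:**
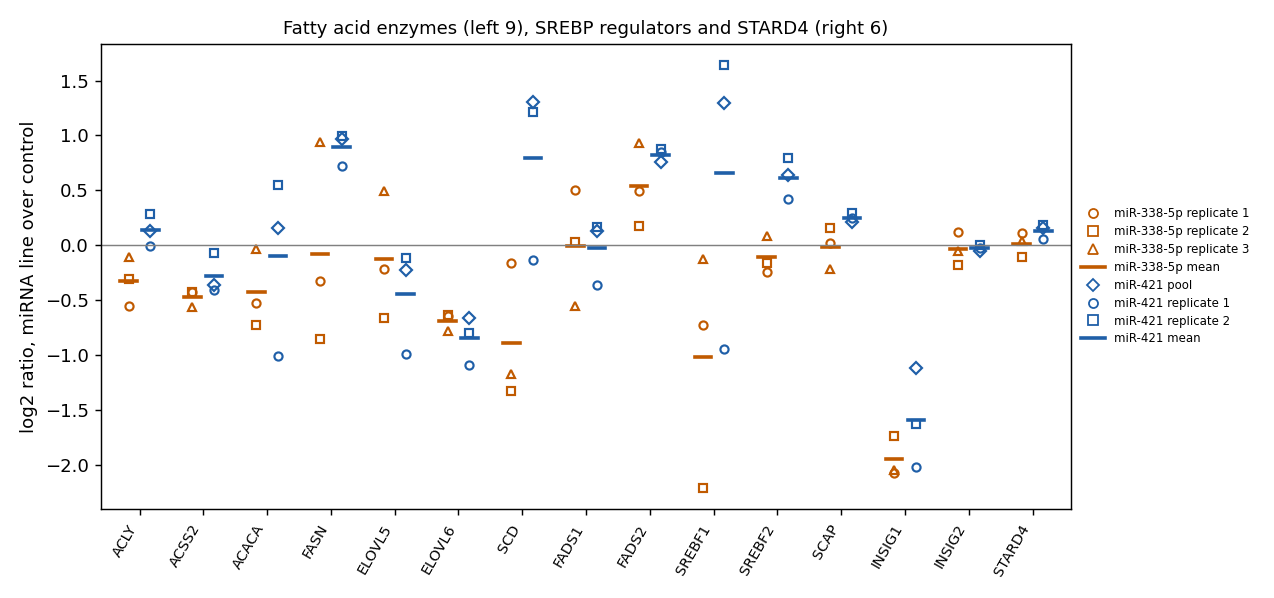
Log2 ratio of the miRNA line over control for 9 fatty acid enzymes, 5 regulators and STARD4, with 1 point per array (orange miR-338-5p, blue miR-421) and a bar at each group mean. INSIG1 lies below -1 on every array, and SREBF1 spreads from -2.21 to 1.64. The arrays of the lines do not overlap for SREBF2, SCAP, SCD, ACLY and ACSS2, none of which passed in the direct comparison.

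STARD4, which carries cholesterol between membranes, was the dimmest member (mean log2 intensity 6.15). Its means were 0.02 ± 0.11 and 0.13 ± 0.07, and it passed in neither line. Across classes, the median of the 17 sterol enzymes was -0.39 in the miR-338-5p line and -0.50 in the miR-421 line, that of the 9 fatty acid enzymes -0.32 and -0.02, and that of the 5 regulators -0.10 and 0.25. On single arrays the sterol median minus the fatty acid median was -0.32, 0.10 and -0.07 on miR-338-5p replicates 1, 2 and 3 and -0.44, -0.25 and -0.40 on the miR-421 pool and replicates 1 and 2. It averaged -0.09 ± 0.21 (SD, n = 3) under miR-338-5p, within the spread of its arrays, and -0.36 ± 0.10 under miR-421, below 0 on all its arrays. These class values are descriptions without a test, and the miR-421 value was -0.71 in the authors' deposited table.

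The direct comparison of the lines left no member past the threshold: 0 of 32 had an adjusted p under 0.05 in limma's test of the difference of means, where 0.0284% of all genes were lower in the miR-338-5p line and 0.0142% higher. Before adjustment 4 members, SREBF2, SCD, ACLY and EBP, were lower in the miR-338-5p line with p under 0.05, and 0 were higher, against 7.31% of all genes lower and 7.18% higher. The robust variance model called 0 as well. SREBF2 differed by -0.72 (95% interval -1.05 to -0.39, limma adjusted p = 0.133), and by -0.81 without miR-338-5p replicate 3 (adjusted p = 0.155). Its difference lay in the miRNA dye, at -0.78 in log2 Cy5 and -0.06 in log2 Cy3. SCD differed by -1.68 (-2.86 to -0.50, adjusted p = 0.237), ACLY by -0.46 (-0.80 to -0.11, 0.261) and EBP by -0.31 (-0.58 to -0.04, 0.313), and for EBP the control dye differed by 0.24 between the groups' arrays and the miRNA dye by -0.07.

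All 3 miR-338-5p arrays lay below all 3 miR-421 arrays for 6 of 32 members, SREBF2, SCAP, SCD, ACLY, ACSS2 and EBP, where 10.1% of all genes did. They lay above them for PMVK alone, where 10% of all genes did. For ACSS2 the nearest arrays of the lines read -0.423 and -0.406. The other 25 members overlapped. For the genes that fell in both lines the intervals of the difference were 95% limits of -0.28 to 0.56 for HMGCS1, -0.94 to 0.23 for INSIG1, -0.05 to 0.63 for IDI1, -0.57 to 0.49 for FDFT1, -0.12 to 0.92 for SQLE, -0.28 to 0.22 for MSMO1 and -0.15 to 0.47 for ELOVL6. Each includes 0, the narrowest is that of MSMO1, and equal action of the miRNAs on these genes was not shown.

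**Figure D3:**
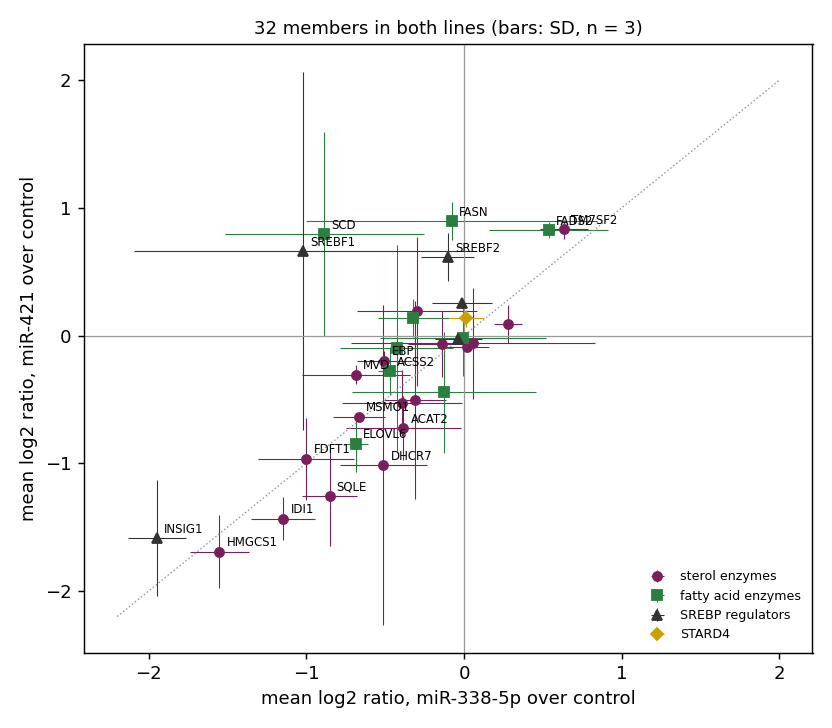
Mean log2 ratio over control of 32 members in the miR-338-5p line (x axis) and the miR-421 line (y axis), with SD bars (n = 3 arrays each), by class, and a dotted line of equal values. Both axes share the control line. HMGCS1, INSIG1, IDI1, FDFT1 and SQLE lie low in both lines, and SCD and SREBF1 lie on opposite sides of 0 with wide bars.

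Members with several kept probes showed how far a value depends on the probe. The probes of ELOVL6 moved alike, with the dimmer at -1.06 ± 0.28 and -1.26 ± 0.10 and also past the threshold (limma adjusted p = 0.00904 and 0.00327). The probes of SREBF1 did not: the dimmer read between -0.10 and 0.13 under miR-338-5p and between 0.05 and 0.71 under miR-421, with means of 0.04 ± 0.12 and 0.37 ± 0.33, and the difference between lines moved from -1.68 to -1.0 when probes were averaged. For LSS, ACACA and ELOVL5 the brighter probe spread over 0.67 to 1.55 between the lowest and highest array of a group, and the dimmer over 0.09 to 0.51. Neither probe of these 3 genes passed in either line. The kept probes of INSIG2 and HSD17B7 all stayed between -0.33 and 0.18, and none passed.

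**Figure D4:**
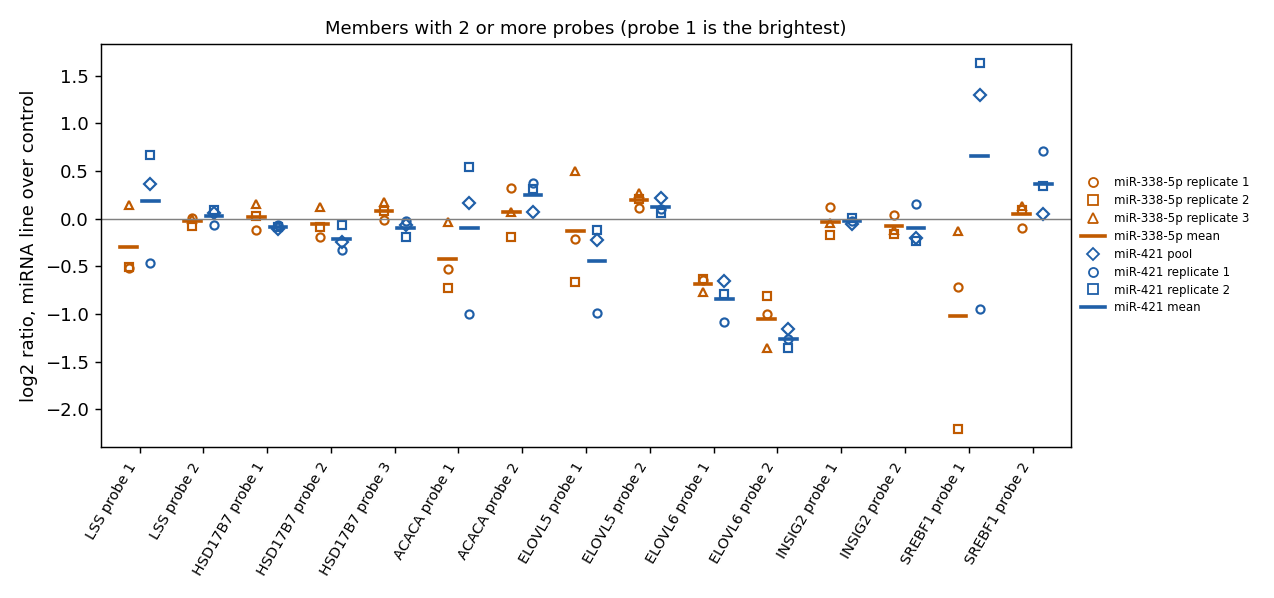
Log2 ratio over control of every kept probe of the 7 members with more than 1 kept probe, with 1 point per array and a bar at each group mean. Both ELOVL6 probes are below 0 on every array, while SREBF1 probe 1 spreads from -2.21 to 1.64 and SREBF1 probe 2 from -0.10 to 0.71.

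Neighbouring pathway genes were grouped by role. For scale, 12.9% of all genes tested fell and 10.1% rose in the miR-421 line. In the miR-338-5p line 5.31% fell and 4.04% rose. The SREBP proteases MBTPS1 and MBTPS2 passed in neither line. Of 6 genes of the nonsterol branch, PDSS1 (-0.91 ± 0.50, SD, n = 3; limma adjusted p = 0.025), of ubiquinone synthesis, and NUS1 (-0.60 ± 0.37, 0.0357), of dolichol synthesis, fell in the miR-421 line, and 0 passed in the miR-338-5p line. Of 9 tested genes of sterol transport, storage and efflux, ABCG1, a sterol exporter, rose under miR-421 with 0.69, 0.74 and 0.60 on the pool and replicates 1 and 2 (0.68 ± 0.07, adjusted p = 0.00329) and read -0.03 to 0.13 under miR-338-5p. NR1H2, an oxysterol receptor (0.43 ± 0.25, 0.0397), rose and OSBP, an oxysterol-binding protein (-0.47 ± 0.12, 0.0164), fell under miR-421, and 0 of the 9 passed under miR-338-5p.

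Of 18 tested genes of other fatty acid synthesis, activation and elongation, 3 rose and 3 fell in the miR-421 line and 0 passed in the miR-338-5p line. Over all genes, 10.1% rose and 12.9% fell in the miR-421 line. ACSL1, which activates long-chain fatty acids, rose with 1.32 on each miR-421 array (adjusted p = 0.0184), and read 0.17, -0.65 and 0.79 under miR-338-5p. AACS, which activates acetoacetate for lipid synthesis (1.1 ± 0.31, adjusted p = 0.00611), and the elongase ELOVL1 (0.81 ± 0.18, 0.0133) also rose. GPAM, the first enzyme of glycerolipid synthesis (-0.58 ± 0.34, 0.0255), and the elongases ELOVL4 and ELOVL7 fell. Of 10 genes of fatty acid oxidation, CPT1A (0.26 ± 0.09, 0.0465) rose and ACADL (-0.62 ± 0.46, 0.0434) fell under miR-421, and 0 passed under miR-338-5p. Before adjustment, limma's p was under 0.05 in the miR-338-5p line for 1 of the 6 nonsterol genes, 2 of the 9 transport genes, 7 of the 18 fatty acid genes and 4 of the 10 oxidation genes, against 28% of all genes. The medians of these 4 lists lay between -0.21 and -0.04 in the miR-338-5p line and between -0.07 and 0.12 in the miR-421 line.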

How the data were processed

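Scans were read by the authors in Feature Extraction 11.5.1.1, per the file headers. The intensity columns they deposited are mean spot signals and median local backgrounds without normalization. The software's log10 ratio (Cy5 over Cy3) was background-subtracted and dye-normalized before it was deposited, per the file headers. A table of the whole series, also deposited, holds log2 ratios per gene name. It correlated with the same array's scanner ratio at 0.968 to 0.980 and in the same direction, its column medians were -0.163 to 0.034, and any normalization beyond the scanner's is not given in the sources used here. Both served as alternatives. Probe coordinates are on hg19, per the file headers, and exon annotation was not used here. All 32 members' accessions were found in the RefSeq gene table under the same symbol.

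Backgrounds were corrected by normexp (offset 50), and each array was normalized by loess (weight 0 for control spots). Outlier spots were left out, spots of a probe averaged, and 27509 of 58201 probes kept (the software's flag for signal well above background, in Cy3 or Cy5, on 3 or more of the 6 arrays). One limma fit (R 4.3.3, limma 3.58.1) of all 6 arrays, with a mean per group and no replicate block, tested each mean against 0 and their difference, two-sided, with adjustment over kept probes at 0.05. Whether 1 control culture supplied all arrays is not stated, and if so the tests against 0 leave out the control's own spread. All arrays were on 1 slide and in 1 scan, so neither was a batch.

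The members and lists were chosen with earlier results of these data known. Values on every array are given for members past the threshold and for the highest and lowest of each class. Other lists are represented by at most 4 genes past the threshold per comparison. MVK, CYP51A1 and DHCR7 were singled out after their values were seen. Some genes of the lists are not reported here. Tested on simulated data (200 of 27382 probes shifted by 1 on the log2 scale), the fit recovered 76.5% for miR-338-5p, with 7 false calls, 74% for miR-421, with 8, and 55.5% and 61% for the difference. The simulated noise was independent and normal, with the same spread in both groups for a probe. Far more genes were called in the data than were shifted here. These rates are therefore not the power of the comparisons reported. Precision is limited by 3 arrays a group.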

Additional observations from a re-analysis of the deposited data

How the results depend on the processing

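HMGCS1 and INSIG1 passed in both lines under all 18 alternatives run for each, and IDI1, ELOVL6 and TM7SF2 did so under miR-421. Over 38 named values and all alternatives (673 values), 589 kept their direction and side of the threshold, 71 lost the call, 4 gained one and 9 changed sign. The 11 calls under miR-338-5p became 7 after background subtraction, 6 after median centring, 6 from the image software's ratio, 2 in the authors' table (INSIG1 and HMGCS1), 4 from its own arrays alone, and 5 to 11 with 1 array left out. The 11 under miR-421 became 7 with median centring (6 lower, 1 higher) and 5 to 15 with 1 array left out. With median centring 80.9% of all genes called under miR-338-5p were lower, against 56.9% as reported, 44.7% after background subtraction and 45.5% from the image software's ratio, while the median of all genes moved by less than 0.1. The difference between lines called 0 members under every alternative. The sterol minus fatty acid median under miR-421 was -0.46 after background subtraction, -0.48 from the image software's ratio and -0.71 in the authors' table. Without 1 array it was -0.19 to 0.02 under miR-338-5p. Values near 0 changed sign under miR-338-5p: SCAP was 0.02 without background correction, 0.05 with it subtracted, 0.02 by the image software, 0.02 in the authors' table and -0.10 to 0.09 with 1 array left out (0.09 without replicate 3), and STARD4 was -0.02 with median centring, -0.02 by the image software, -0.02 in the authors' table and -0.03 to 0.07 with 1 array left out (-0.03 without replicate 1). The cause of these changes was not tested.

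With the replicate number as a random block the counts were 11, 11 and 0. Deviations of arrays with the same number correlated at -0.14 and -0.21, and the block correlation was -0.30. Only numbers 1 and 2 occur in both groups, so these values cannot settle whether the numbers pair the arrays. Signal over background limits the dimmest members, MSMO1, STARD4, INSIG2 and HSD17B7.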
